A study of Mus musculus with 9 samples.

Results

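The genes Mbp, Mag, Mobp, Cldn11, Olig1, Olig2, Sox10 and Pdgfra, 8 of the 18634 genes in a single-cell count table of the mouse brain, are described here as the oligodendrocyte lineage and myelin genes. They were taken from the table by name. The study asked how sleep and sleep loss change brain cells. It sequenced cells of brainstem, cortex and hypothalamus from male C57BL/6J mice (C57BL/6 in the sample labels) of 9 to 11 weeks, in 3 sleep groups, with no transgene or other agent. The groups were normal sleep (NS), sleep deprivation for 12 h (SD) and sleep deprivation for 12 h followed by recovery sleep (RS), and tissue was collected at ZT12, which is lights off. The sample descriptions give the recovery as 24 h in one place and as 12 h in another. Each region and group was 1 library pooled from 3 mice. The tissue was dissociated with papain, and the suspension was passed over myelin removal beads before droplet capture with the 10x Chromium version 2 kit. These beads hold back myelin debris, and cells attached to myelin can be lost with it, which was not measured here.

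Oligodendrocytes wrap the axons of the central nervous system in myelin. They arise from precursor cells that divide under platelet-derived growth factor, whose receptor is the product of Pdgfra. Olig1, Olig2 and Sox10 encode transcription factors of the lineage, present from the precursor to the mature cell. Mbp (myelin basic protein) and Mobp (myelin-associated oligodendrocyte basic protein) encode proteins of compact myelin, Mag encodes an adhesion protein at the face of the axon, and Cldn11 encodes the claudin of myelin's tight junctions. Several of the 8 genes are also used outside the lineage. Pdgfra marks fibroblasts, Cldn11 is made in other barrier-forming cells, Olig2 occurs in some astrocytes, and the Mbp locus also gives transcripts in neurons and immune cells.

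The table held 29571 cells with 31468255 unique molecular identifiers (UMIs, each 1 captured transcript), and the median cell had 806. The 9 libraries are numbered in the order of their codes in the table. Library 7 matched brainstem NS through 1999 barcodes of a published cell list, and for the other 8 neither region nor sleep group could be assigned. Nothing was inferred about them, and no sleep groups were compared. The libraries held 2575 to 3916 cells with median UMIs of 402 to 1055. Libraries 4, 5 and 6 stood apart through growth hormone (Gh), which made up 25.3 to 32.1% of their UMIs, and libraries 7, 8 and 9 through hemoglobin at 3.22 to 6.79%. Barcodes found in more than 1 library numbered 549. With 1 library per region and group there are no replicates, and all intervals below are 95% intervals that cover counting error only.

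In the mouse genome (GRCm38) Cldn11 lies at chr3:31149920-31164324 on the plus strand and Pdgfra at chr5:75152292-75198215 on the plus strand. Olig2 (chr16:91225457-91228677) and Olig1 (chr16:91269772-91271933) lie on the same strand, 41094 bases apart, with 1 other annotated gene starting between them. Mag lies at chr7:30899176-30914873 and Sox10 at chr15:79154908-79165240, both on the minus strand, and Mobp at chr9:120149707-120181484 on the plus strand. Mobp, Olig1 and Pdgfra overlap other annotated genes. Gm38642 lies on the strand of Mobp and Mir7025 on that of Pdgfra, so reads shared with these cannot be told apart here. Gm15966 at Olig1 and Gm42802 and Gm42803 at Pdgfra lie on the opposite strand, and their part in the counts was not tested. RefSeq promoters of 300 bases, from 250 before to 50 after the start on GRCm38.p6, matched 5 of the 8 genes. Cldn11 and Pdgfra are shown because they were the pair most often found in the same cells, and Olig2 as a lineage factor. Capitals mark the GC box GGGCGG on either strand.
Cldn11: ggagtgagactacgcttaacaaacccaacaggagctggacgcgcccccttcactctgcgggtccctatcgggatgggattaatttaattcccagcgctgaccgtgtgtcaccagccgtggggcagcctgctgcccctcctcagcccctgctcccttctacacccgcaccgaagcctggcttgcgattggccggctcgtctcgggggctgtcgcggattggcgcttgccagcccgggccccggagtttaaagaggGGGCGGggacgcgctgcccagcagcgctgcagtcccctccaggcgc
Pdgfra: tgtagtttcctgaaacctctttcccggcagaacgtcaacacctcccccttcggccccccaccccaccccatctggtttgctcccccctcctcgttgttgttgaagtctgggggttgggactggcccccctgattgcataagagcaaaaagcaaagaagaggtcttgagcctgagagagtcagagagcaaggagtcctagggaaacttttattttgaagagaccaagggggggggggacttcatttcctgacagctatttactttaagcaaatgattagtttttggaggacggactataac
Olig2: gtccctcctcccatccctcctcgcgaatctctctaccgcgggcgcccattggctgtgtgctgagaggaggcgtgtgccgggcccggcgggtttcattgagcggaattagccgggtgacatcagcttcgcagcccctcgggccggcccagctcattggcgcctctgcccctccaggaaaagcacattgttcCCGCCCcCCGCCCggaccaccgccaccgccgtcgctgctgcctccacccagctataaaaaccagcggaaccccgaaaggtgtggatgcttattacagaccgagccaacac
These windows are chr3:31149670-31149969, chr5:75152001-75152300 and chr16:91225300-91225599, all on the plus strand. The Cldn11 window held 1 GC box and 2 copies of the CCAAT box, and that of Olig2 held 2 GC boxes, 2 CCAAT boxes and 1 TATA box (TATAAA). The Pdgfra window held none of these 3 and had 2 copies of the E-box CANNTG, the motif read by Olig proteins and other basic helix-loop-helix factors. Of 32851 RefSeq promoters of this length, searched on both strands, 35.7% held a GC box, 37.4% a CCAAT box, 13.6% a TATA box and 72.3% an E-box. GC content was 66.3% for Cldn11, 65.0% for Olig2 and 51.0% for Pdgfra, against a median of 52.7%. The Mobp window (GC content 43.3%) held the letters ACAAAG, the core read by Sox proteins, 6 times, and 18.7% of all promoters held them at least once.

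All 8 genes were sparse. Cldn11 had 377 UMIs in 184 cells, Mbp 372 in 347, Olig1 212 in 184, Pdgfra 200 in 147, Mag 56 in 55, Olig2 46 in 44, Mobp 29 in 29 and Sox10 6 in 6. A cell that held Mbp held a single UMI of it in 93.7% of cases. Cldn11 was more uneven. A single UMI was found in 67.9% of its cells, while the 19 cells with 5 or more held 37.4% of its UMIs and the highest cell held 16. The other genes of mature myelin ranged widely. Of a list of 28 such genes, 24 were in the table, with a median of 368 UMIs. The highest were Apod (6165 UMIs), Gsn (3520) and Cryab (2894), above all 8 genes, while 9 of the 24 had under 50 UMIs. Ermn, which encodes ermin, had 11 UMIs in all, and Fa2h, which makes the hydroxylated fatty acids of myelin lipids, had 9. Cnp, a gene abundant in oligodendrocytes, had 1116 UMIs, of which 30.0% lay in cells with ependymal markers.

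The myelin genes differed between libraries in different ways. Mbp stood at 19.0, 20.2, 30.0, 8.83, 8.95, 9.47, 7.20, 7.84 and 5.95 CPM (UMIs of the gene per 1000000 UMIs of the library) in libraries 1 to 9. Library 3 was highest, with an interval of 24.6 to 36.1 CPM that met those of libraries 1 and 2 only. Its share of cells with Mbp was 3.57%, against 0.628 to 1.30% in the other libraries. Cells with microglia markers, defined below, held Mbp at 9.28, 13.9 and 11.0 CPM in libraries 7, 8 and 9, above the levels of those whole libraries, while the 8 to 240 such cells of each of libraries 1 to 6 held none, with upper bounds of 44.1 to 567 CPM. Mobp, at 2.63, 3.10 and 3.00 CPM in libraries 1, 2 and 3, was between 0 and 1.35 CPM in the others, and was not found in libraries 5, 6 and 8. With 29 UMIs in all, the interval of library 2, the highest, still met those of 6 of the other 8. Mag ran the other way. It was at 4.50 CPM (2.75 to 6.95) in library 7 and 3.49 CPM (2.03 to 5.58) in library 9, and at or below 1.97 CPM in the other 7, library 8 included at 1.45 CPM. The interval of library 7 met those of 5 of the other 8.

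Cldn11 stood at 9.19, 15.5, 7.90, 2.77, 10.8, 4.92, 28.3, 16.6 and 12.3 CPM in libraries 1 to 9. The brainstem NS library was highest, and its interval (23.6 to 33.7 CPM) lay above those of all other libraries. Of its 126 Cldn11 UMIs, 63 came from 43 cells described below. Libraries 8 and 2 followed, with intervals that overlapped each other.

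Pdgfra, the receptor, stood at 1.97, 4.14, 1.36, 2.27, 4.71, 1.28, 9.22, 14.5 and 13.7 CPM in libraries 1 to 9. Libraries 7, 8 and 9 were all above the other 6 and held 79.0% of its UMIs. The interval of library 7 (6.62 to 12.5 CPM) reached below the upper bound of libraries 2 and 5, while those of libraries 8 and 9 began at 10.8 and 10.6 CPM, above every upper bound in libraries 1 to 6.

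Olig1 and Olig2, which encode transcription factors, showed no such split. Olig1 was between 0.911 CPM (library 6) and 12.5 CPM (libraries 1 and 8), with libraries 1, 2, 7, 8 and 9 overlapping. Olig2 was between 0.547 and 2.91 CPM on 46 UMIs, and the intervals of its highest and lowest libraries overlapped. Sox10 was not found in libraries 1 to 5, and libraries 6, 7, 8 and 9 held 1, 1, 3 and 1 of its 6 UMIs, too few to order the libraries.

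**Figure D1:**
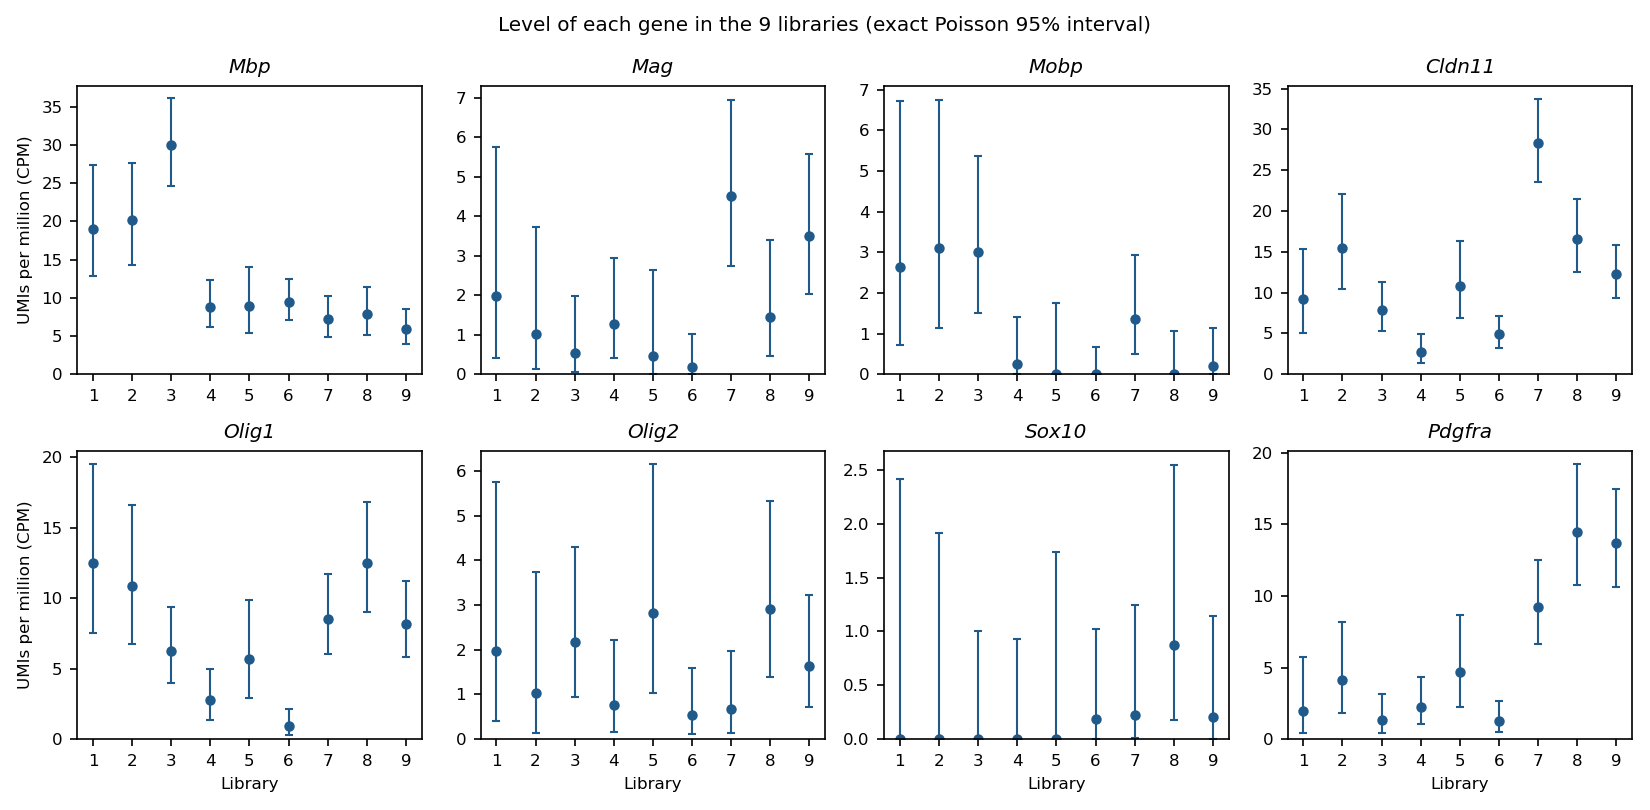
Level of each of the 8 genes in the 9 libraries (CPM, with exact Poisson 95% intervals for counting error, 1 library per point). Cldn11 is highest in library 7 at 28.3 CPM, Pdgfra is above 9 CPM only in libraries 7, 8 and 9, and Mbp is highest in libraries 1, 2 and 3.

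The published list named cell types for 1999 cells of library 7, made with these same genes among the many clustered, so the values by type are descriptions. Among the 8 genes Cldn11 followed the label of oligodendrocyte most clearly. It was found in 22 of 43 cells listed as oligodendrocytes, a share of 51.2% (35.5 to 66.7), and in 7 of 1956 other listed cells, or 0.358%. In levels it stood at 727 CPM (559 to 930.4) against 3.24 CPM. After each cell was thinned to 500 UMIs the shares were 26.2% and 0.206%. The listed oligodendrocytes were deeper, with a median of 1651 UMIs per cell against 900.5. Within them the counts were uneven, with 21 cells at 0, 7 cells at 1 UMI, 6 at 2 and 9 at 3 or more.

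Of the other 7 genes, Pdgfra was found in 3 of the 43 cells, or 6.98% (1.46 to 19.1), against 0.562% (0.281 to 1.00) of the other listed cells. Mbp and Olig1 were each found in 1 of the 43, and Mag, Mobp, Olig2 and Sox10 in none, for which the exact interval of the share of cells with a UMI reaches 8.22%. Cnp was found in none of the 43 cells and in 4.29% of the others. Of the 24 mature myelin genes, 14 (58.3%) had no UMI in the 43 cells, and 6 of these had none in the other listed cells either. Among all genes 55.1% had no UMI in the 43 cells, so this count is near the background. All 6 Schwann cell markers were also at 0. Mbp, Mag, Mobp and Cnp were thus at or near 0 in the 43 cells. Mbp, Mag and Mobp were also rare in the other listed cells, at 0.869%, 0.511% and 0.153%. Gsn, Cryab and Apod, also on the mature myelin list, were found in 48.8 to 62.8% of the 43 cells, against 7.52 to 10.8%. The label is kept only as a name, and these are called here the cells listed as oligodendrocytes.

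Beside Cldn11, the genes that led these cells were not members. Of 9480 genes tested against the other listed cells, 119 (1.26%) were at least 4-fold higher, on a scale with 10 CPM added to both levels. From the list of mature myelin genes 1 of 13 tested passed that fold, and none of 6 precursor genes and none of 4 transcription factors did. The list medians were -0.84, -1.08 and -1.30 on the log2 scale, and the median over all genes tested was -0.40. The 1 that passed was Gsn, the actin-severing gelsolin, which was higher by 3.52 on the log2 scale with 122 UMIs in 27 of the 43 cells. Cryab and Apod, a small heat shock protein and a lipid carrier that mature oligodendrocytes also make, were found in 23 and 21 cells and were higher by 1.99 and 1.20. The largest difference was that of Prg4, which encodes the lubricant protein lubricin, higher by 7.09 with 177 UMIs in 22 cells. Dapl1 (6.50), Cldn11 itself (5.80), Nov (5.77), Igfbp6 (5.65) and Rspo3 (5.30) followed. Genes were tested at 20 UMIs or more in all, and among these only Igfbp6 reached that in the other listed cells (104 UMIs). Prg4 had 11 UMIs there, Dapl1 15, Cldn11 7, Nov 14 and Rspo3 3. These were thus tested only through their UMIs in the 43 cells, which favours such genes in this order. Among abundant genes Ptgds, which encodes a prostaglandin D synthase, was higher by 4.31 and Mgp, a matrix protein gene, by 4.46. Cdh1, which encodes E-cadherin, was found in 13 of the 43 cells and in none of the others.

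Some fibroblast and leptomeningeal markers were higher in these cells. The median of the 6 was 1.74 on the log2 scale, 1 of the 6 passed the fold (Col1a2, a collagen gene, at 2.57), and their summed level was 1131 CPM against 327 CPM. The 24 mature myelin genes summed to 3093 CPM against 1425 CPM. At least 2 of the 24 were found in 62.8% of these cells, against 21.5% of the other listed cells. Col1a2 was found in 14 of the 43 cells, Dcn, which encodes decorin, in 9 and Col3a1 in 7. The differences of Dcn, Col1a1 and Col3a1 were 1.68, 1.79 and 1.98, and Lum and Slc6a13 went the other way, Lum at 23.1 against 56.0 CPM and Slc6a13 at -0.54 on the log2 scale. By number of markers, 16.3% of these cells held at least 2 of the 6 fibroblast and leptomeningeal markers, against 2.45% of the other listed cells. The listed pericytes, which are among the others, stood higher at 25.0% (42 of 168 cells). These shares were not thinned, and the listed oligodendrocytes were deeper, with a median of 1651 UMIs against 900.5. The part of these markers in the Cldn11 level was not tested. Among the 43 cells the share was 18.2% in the 22 with Cldn11 and 14.3% in the 21 without.

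**Figure D2:**
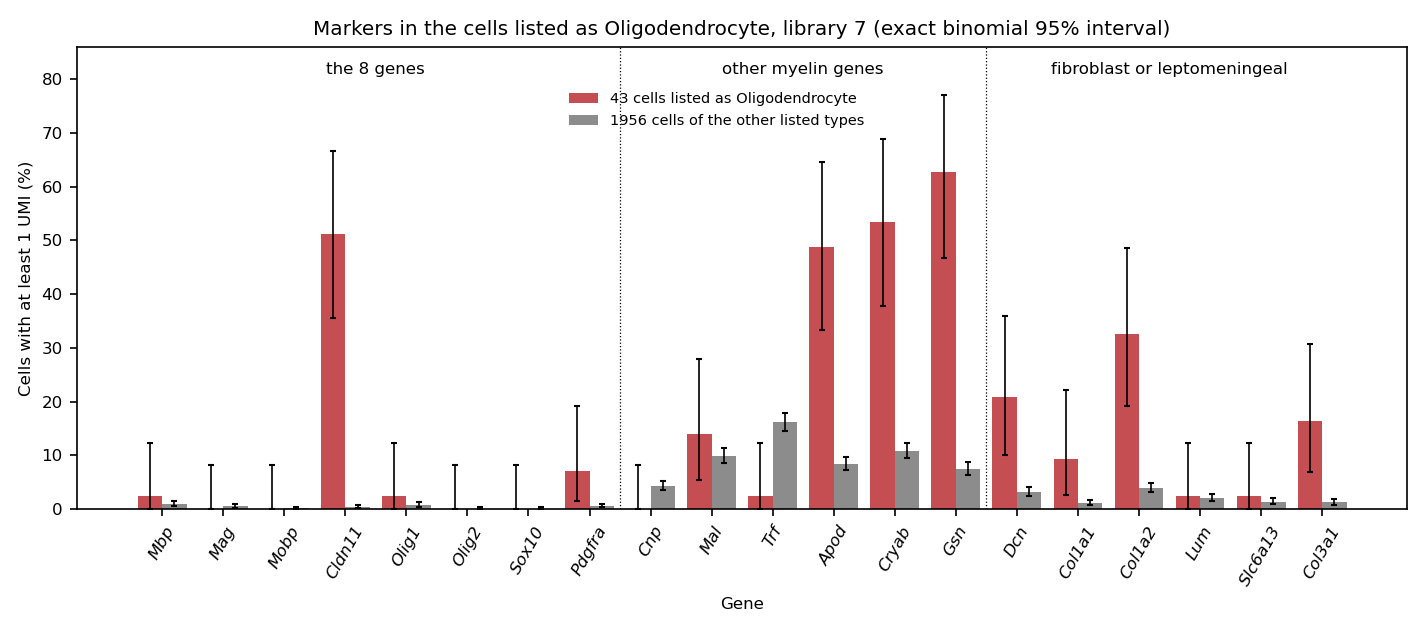
Share of cells with at least 1 UMI (%, exact Clopper-Pearson 95% intervals) for the 8 genes, 6 other myelin genes and 6 fibroblast or leptomeningeal markers, in 43 cells listed as oligodendrocytes and 1956 other listed cells of library 7. Cldn11, Apod, Cryab and Gsn are found in 48.8 to 62.8% of the listed oligodendrocytes, while Mag, Mobp, Olig2, Sox10 and Cnp are at 0.

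In the other listed types single genes stood out. Olig1 was found in 11 of 188 astrocytes, or 5.85% (2.96 to 10.2), and Mag in 9 of 549 microglia, or 1.64% (0.752 to 3.09). Pdgfra was found in 9 of 168 cells listed as pericytes, or 5.36% (2.48 to 9.93). All 9 of these held at least 2 fibroblast markers, and 20.8% of the 159 pericytes without Pdgfra did. The remaining sites were thin. 1 cell listed as another neuron held 4 UMIs of Olig1, 1 of Sox10 and 2 of Pdgfra. The 1732 cells of library 7 with no listed type held 56 Cldn11 UMIs in 14 cells, beside the 63 of the listed oligodendrocytes.

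**Figure D3:**
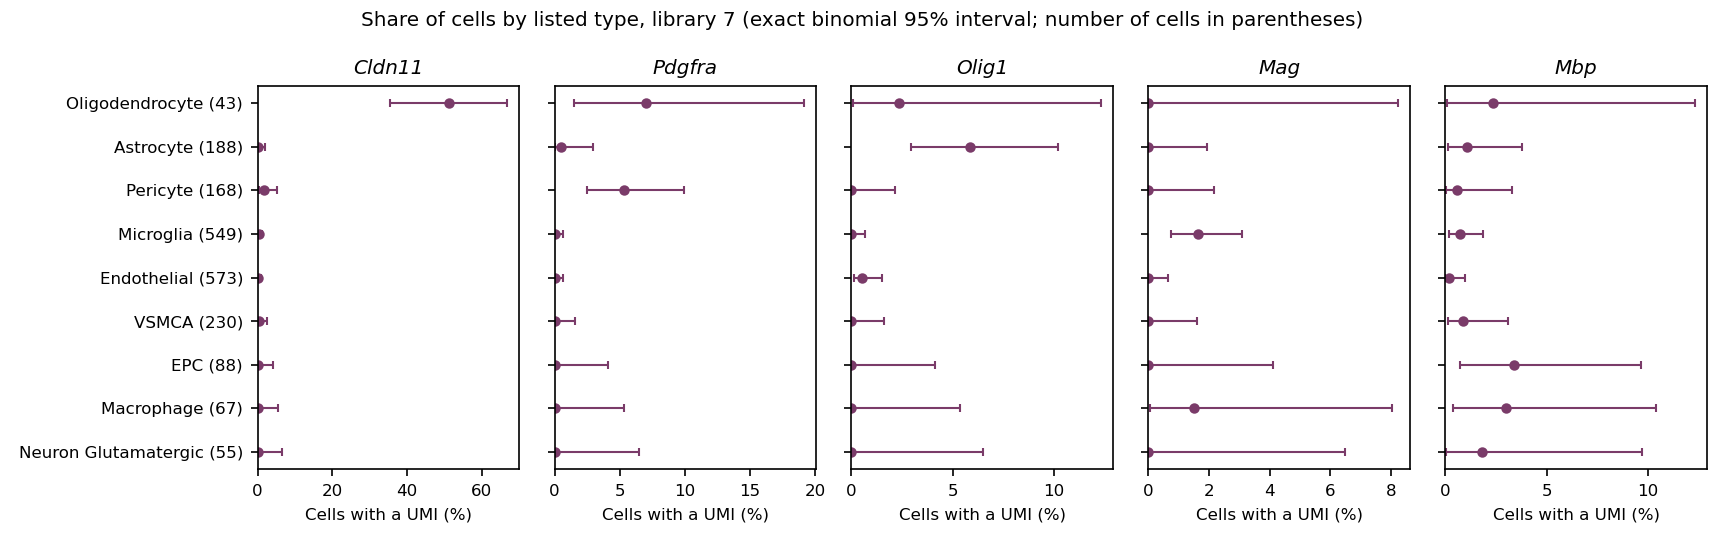
Share of cells (%) with at least 1 UMI of Cldn11, Pdgfra, Olig1, Mag and Mbp in the listed cell types of at least 43 cells of library 7 (brainstem NS). Cldn11 in cells listed as oligodendrocytes (51.2%) is the highest share, and Olig1 in astrocytes (5.85%) and Pdgfra in pericytes (5.36%) are the next among types of more than 100 cells.

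Cells of all 9 libraries were also grouped by a marker count, as those with at least 3 of 6 markers of a class and more than of any other. Such a class is a range and not a cell type. Of its cells, 28.9% (neuron), 42.7% (astrocyte), 27.5% (microglia) and 47.1% (fibroblast or leptomeningeal) lay exactly at the cut. Of the classes, the one with neuron markers held the most cells with the myelin genes Mbp and Mobp. Mbp stood at 33.2 CPM (28.3 to 38.8) there and at 7.87 CPM in the other cells, and 43.2% of its cells were in the class, which held 10.3% of all cells. The level was higher in the neuron class in 9 of 9 libraries, with intervals apart in 3. In library 3, for example, it was 39.6 CPM against 15.2 CPM. Cells with neuron markers were deeper (a median of 1309 UMIs against 777), and after thinning to 500 UMIs the shares with Mbp were 1.58% and 0.400%. Libraries 1, 2 and 3, with the highest Mbp, held 449, 697 and 980 cells of the neuron class, and the other libraries held 54 to 326. The part of this in their Mbp levels was not tested. In these 3 libraries the other cells had 11.2, 6.65 and 15.2 CPM, and in libraries 4 to 9 they had 5.87 to 8.26 CPM.

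Mobp had 21 of its 29 UMIs in the neuron class, at 4.28 CPM against 0.301 CPM. All 21 came from libraries 1, 2 and 3, where no Mobp UMI was found outside the class. The other 8 UMIs, from libraries 4, 7 and 9, lay outside it.

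Mag lay most often in cells with microglia markers. It stood at 17.8 CPM (12.5 to 24.7) there against 0.679 CPM elsewhere, with 35 of its 55 cells in the class. It was higher in the class in 6 of 9 libraries, and libraries 3, 5 and 6, with 8 to 91 such cells, had none. After thinning the shares were 1.04% and 0.0550%. No cell of the neuron class held Mag. Libraries 7, 8 and 9 held 918, 602 and 426 cells of the microglia class and the others at most 240, and its part in the Mag level of library 7 was not tested. Outside the class Mag was at 1.67 CPM in library 7 and at or below 1.39 CPM in the others.

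The lineage factors Olig1 and Olig2 were highest in cells with astrocyte markers. Olig1 stood at 30.3 CPM (24.1 to 37.6) in the class against 4.52 CPM, with 79 of its 184 cells there, and after thinning the shares were 1.70% and 0.249%. The class was higher in 8 of 9 libraries, with intervals apart in 6. Library 6, with 74 such cells, had no Olig1 in them. Olig2 stood at 9.61 CPM (6.28 to 14.1) against 0.695 CPM, with 26 of 44 cells in the class, and was higher there in 8 of 9 libraries, with intervals apart in 2. All 6 cells with Sox10 were in no class.

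Pdgfra and Cldn11 were highest in the fibroblast or leptomeningeal class. Pdgfra stood at 277 CPM (221 to 342) in its 257 cells against 3.66 CPM, and was found in 24.5% of them against 0.287%. The class was higher in 7 of 9 libraries, with intervals apart in all 7. The other 2 libraries, 1 and 2, had 4 and 5 such cells and no Pdgfra in them. Outside the class Pdgfra was still at 10.0 CPM in library 8 and 7.76 CPM in library 9, and at or below 4.14 CPM in libraries 1 to 7. Cldn11 stood at 164 CPM (122 to 216) against 10.5 CPM and was higher in the class in 5 of 9 libraries. Of the 51 Cldn11 UMIs of the class, 35 came from library 7, 16 and 7 of them from single cells, and without that library the level was 77.4 CPM (44.2 to 126) against 8.76 CPM. The class held only 18 of its 184 cells, and 65.8% of them were in no class.

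**Figure D4:**
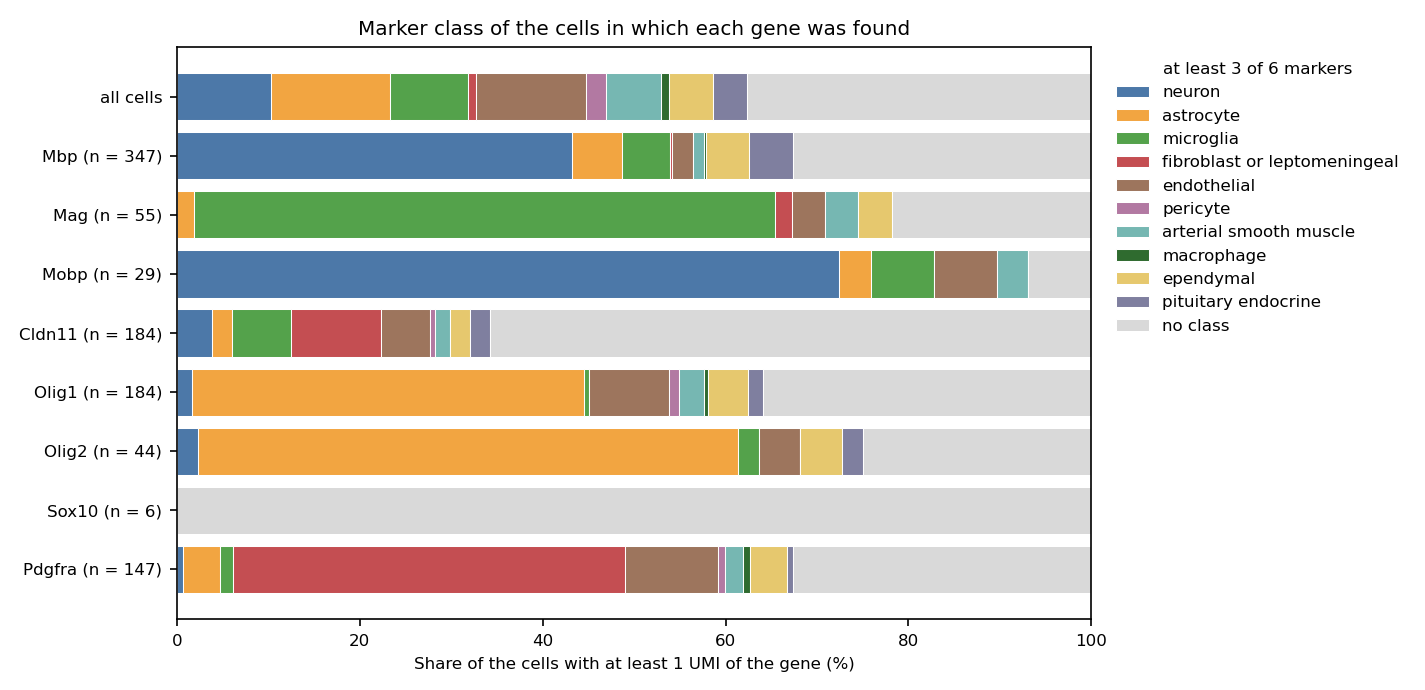
Share (%) of the cells with each gene that fall in each marker class, over all 9 libraries, beside the share of all cells. Among the classes Mbp and Mobp are most often in the neuron class (43.2% of Mbp cells), Mag in the microglia class, Olig1 and Olig2 in the astrocyte class and Pdgfra in the fibroblast or leptomeningeal class.

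Across cells the genes most like each member were named by the phi coefficient of being found in the same cells, over 15656 genes and 29571 cells that share libraries and differ in depth. For Cldn11 they were Prg4 (phi 0.412), Cdh1 (0.327) and Tspan8 (0.284), and Prg4 was found in 73 of the 184 Cldn11 cells. For Pdgfra they were Dcn (0.295), Lum (0.263) and Col3a1 (0.221), all matrix genes of fibroblasts. For Mbp, Mag, Mobp, Olig1 and Olig2 no value was above 0.126, which in counts this sparse is too weak to read. The highest value for Sox10, that of Shc4 (0.160), rested on 2 of its 6 cells. In the 184 cells with Cldn11 of all libraries, 148 of 14181 genes (1.04%) were at least 4-fold higher than in cells with none of the 8 genes. From the lists, 5 of 6 fibroblast or leptomeningeal markers passed (median 2.34 on the log2 scale). Of 15 mature myelin genes 3 passed (Gsn, Apod and Cryab), and of 13 precursor genes none. Over all cells, the marker class with the most Apod UMIs was the fibroblast or leptomeningeal class (48.3%, against 0.987% of all UMIs). For Cryab it was the arterial smooth muscle class (38.2%) and for Gsn the ependymal class (33.2%).

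At least 1 of the 8 genes was found in 953 cells, or 3.22%, and 2 or more in 37 cells, or 0.125% (0.0881 to 0.172). Of these, 32 held 2 genes, 4 held 3 and 1 held 4. In libraries 1 to 9 the number was 1, 1, 2, 0, 1, 1, 9, 9 and 13, so 31 of the 37 cells lay in libraries 7, 8 and 9. In library 4 it was 0 of 3491 cells, with an exact interval up to 0.106%. The share was 0.241%, 0.256% and 0.350% in libraries 7, 8 and 9 and 0 to 0.0729% in the others. Depth differed as well. The median was 1059 UMIs in cells with 2 or more genes and 800.0 in cells with none, though library 8 (698 against 740.5) and library 6 (864 in 1 cell against 1052) went the other way. After thinning to 500 UMIs 11 of 23826 cells remained, or 0.0462%. Cells with at least 3 microglia markers made up 2 of the 37. None of the 37 shared its barcode with a cell of another library.

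Of the 28 possible pairs, 15 were seen and 7 of those in a single cell. Of 6 pairs of myelin genes 3 were seen. Mbp was found with Mobp in 2 cells and with Mag and Cldn11 in 1 each, and it was in 6.90% (0.846 to 22.8) of the cells with Mobp against 1.17% of those without. Cldn11 and Pdgfra made the largest pair with 15 cells. Pdgfra was found in 8.15% (4.63 to 13.1) of the cells with Cldn11 and in 0.449% of those without. Olig1 and Pdgfra followed with 11 cells, or 5.98% of the cells with Olig1 against 0.463% of those without. Of the 6 cells with Sox10, 4 held Olig1 and 4 held Pdgfra, a share of 66.7% (22.3 to 95.7) each. Olig1 and Olig2, which lie close in the genome, were found together in 3 cells, with Olig2 in 1.63% (0.338 to 4.69) of the cells with Olig1 against 0.140% of those without.

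**Figure D5:**
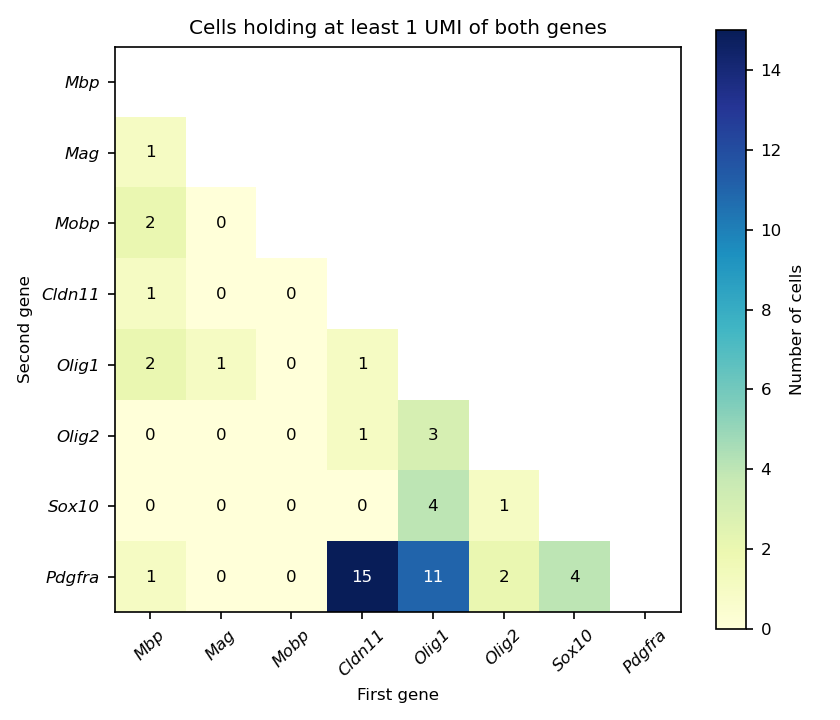
Number of cells, of 29571, with at least 1 UMI of both genes of each pair (colour and digits). Cldn11 with Pdgfra (15 cells) and Olig1 with Pdgfra (11 cells) stand above the other pairs, and pairs among Mbp, Mag and Mobp are at 0 to 2 cells.

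The 37 cells fell mostly into 2 sets, chosen after their values were seen, and a single cell belonged to both. The first set, Cldn11 with Pdgfra, had 15 cells from libraries 1, 5, 6, 7, 8 and 9 (1, 1, 1, 4, 1 and 7 cells) and a median of 3078 UMIs. At least 2 fibroblast markers were found in 13 of them. Dcn and Col1a2 were each found in 11 cells and Apod in 14. Cnp was found in none of them, and in 3.35% of cells with none of the 8 genes. At least 2 mature myelin genes were found in all 15, against 11.6% of cells with none of the 8. In the 14 of these cells outside the second set, 269 of 14152 genes (1.90%) were at least 4-fold higher than in cells with none of the 8. From the lists, 5 of 6 fibroblast markers passed, with a median of 3.28 on the log2 scale, 3 of 15 mature myelin genes (again Gsn, Apod and Cryab) and 1 of 13 precursor genes (Rras2). The leading marker class of Apod, as given above, was itself the fibroblast or leptomeningeal class. Among all genes Prg4 led, higher by 5.75, with Rspo3 at 5.38. With any 1 library left out, 4 to 6 of the fibroblast markers passed.

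The second set held 2 or more of Olig1, Olig2, Sox10 and Pdgfra. It had 14 cells, all from libraries 7, 8 and 9 (4, 7 and 3 cells), with a median of 871 UMIs. At least 2 genes of the precursor list were found in 10 of the 14 (71.4%, against 2.16% of cells with none of the 8 genes), and at least 2 fibroblast markers in 1. At least 2 astrocyte markers were found in 6 (42.9% against 24.1%), and at least 2 endothelial markers in 5 (35.7% against 17.1%). Of the 14, 4 fell in another marker class (2 astrocyte, 1 endothelial and 1 ependymal), and 8 of the 10 in no class held at least 2 precursor genes. Ptprz1, a receptor phosphatase gene of glial progenitors, was found in 10 cells. Vcan (versican) and Neu4 (a sialidase) were found in 6 each, Cspg4, which encodes the precursor marker NG2, and Cacng4 in 5, and Gpr17, a receptor of cells about to differentiate, in 4. Neu4 was thus in 42.9% of these cells and in 0.0140% of cells with none of the 8 genes. Cnp was found in none of the 14, and in 3.35% of cells with none of the 8 genes. In the 13 cells outside the first set, 899 of 14145 genes (6.36%) were at least 4-fold higher. In these cells 1 UMI is worth 70.8 CPM, so genes that are rare elsewhere passed the fold with a single UMI. From the lists, 9 of 13 precursor genes passed, with a median of 4.00 on the log2 scale, and 2 of 15 mature myelin genes. Of 6 transcription factors 1 passed, and of 6 fibroblast markers none. Of 3 Schwann cell markers tested 2 passed (Cdh19 and Egfl8), with 1 UMI each. Of the precursor genes that passed, those with the most UMIs were Ptprz1 (19 UMIs, higher by 3.49), Tnr (8 UMIs, 4.28), Vcan (7 UMIs, 5.19) and Cspg4 (6 UMIs, 4.36). With any 1 library left out, 8 or 9 precursor genes passed. The smaller counts were less stable, at 1 to 3 mature myelin genes, 0 (without library 8) to 3 (without library 9) transcription factors and 0 or 1 fibroblast markers. Among the cells in no class, 7 of 8 precursor genes tested passed, where 12.4% of all genes did.

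Over all cells with 2 or more of the 8 genes, 172 of 14152 genes (1.22%) were at least 4-fold higher than in cells with none. The count was 6 of 13 for precursor genes (median 1.91 on the log2 scale), 3 of 15 for mature myelin genes (median -0.38), 0 of 6 for transcription factors and 4 of 6 for fibroblast markers (median 2.72), and the median over all genes tested was -0.22. The 6 precursor genes were Matn4, Vcan, Lhfpl3, Cacng4, C1ql1 and Cspg4. Each of these 6 was higher in 2 or 3 of the 8 libraries with such cells. Without library 8, which held 7 of the 14 cells of the second set, 2 precursor genes passed. The mature myelin genes were again Gsn, Cryab and Apod, and 1 passed without library 6 and 5 without library 7. Libraries 7, 8 and 9 held 31 of the 37 cells. In these libraries alone 3 precursor genes and 1 mature myelin gene passed, where 1.27% of all genes did. The gene most like the set of 37 was Gjc3, which encodes a connexin of myelinating glia, in 5 of the 37 cells and 0.0813% of the others (phi 0.152). Foxc2 (0.128), Adam12, Cyp1b1, Lypd2, Prg4, Slc47a1, Matn4, Twist1 and Mrap followed, all at low phi.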

How the data were processed

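The deposited file is a matrix of genes by cells whose values are raw UMI counts, as the authors left them. The submitters' processing notes name Cell Ranger 2.2.0 and GRCm38. The deposited table was used with all its cells, and no doublet caller was run. Cell types came from the study's list, held here for 1999 cells. The members and lists were chosen with earlier results of these data known. Levels are CPM with exact Poisson intervals and shares have exact Clopper-Pearson intervals, both at 95%. PCR and pooling error are not covered. Profiles are log2 ratios of CPM + 10 between summed counts, called at 4-fold, for genes of at least 20 UMIs (listed cells) or 50 UMIs (others). Cells were thinned to 500 UMIs at random (seed 7), and shallower cells were left out. Named were all 8 members, the called list genes with at least 5 UMIs, the leading genes and the 10 most alike by phi among genes in at least 20 cells. Promoters are from RefSeq. Python 3.11.15, numpy 2.4.6, pandas 2.3.3 and scipy 1.17.1 were used. Some list genes are counted but not reported here by name. Alternatives were other depths, pseudocounts, filters, marker cuts and libraries.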

Additional observations from a re-analysis of the deposited data

How the results depend on the processing

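The share of cells with 2 or more of the genes, 0.125%, was 0.0135% where 2 UMIs of each were asked for, 0.187% in cells of at least 1000 UMIs, 0.0462% after thinning to 500 UMIs and 0.0406% without Pdgfra and Cldn11. Without libraries 4, 5 and 6, an alternative chosen after seeing the data, it was 0.180%. It moved less without cells holding 3 markers of another class (0.162%), without the deepest 5% of cells (0.0997%) and without cells sharing a barcode (0.130%, added later). Leaving out each library in turn gave 0.0928 to 0.142%. Per library, the share was 0 in libraries 2, 3, 5 and 6, 0.0540% in library 7 and 0.0539% in library 9 after thinning, and in cells of at least 1000 UMIs it was 0.307% in library 1 and 0 in libraries 2 and 6. In the listed oligodendrocytes, 2 mature myelin genes and 1 precursor gene passed the fold with 1 CPM added in place of 10, where 2.17% of all genes did. In cells with 2 or more genes, 5 mature myelin genes passed with 1 CPM added, where 4.01% of all genes did. In libraries 7, 8 and 9 alone (added later) 1 mature and 3 precursor genes passed, where 1.27% of 11931 genes did. Without cells holding 3 markers of another class 1 transcription factor passed. There 6.66% of 10525 genes did, a high background for so short a list. Leaving out each library gave 1 to 5 mature, 2 to 7 precursor and 0 transcription factor genes, where 1.15 to 1.83% of all genes passed. The count over all genes moved from 119 to 206, 56 and 199 (1 CPM added, at least 50 UMIs, no filter) for the listed cells and from 172 to 567 (1 CPM added) and 701 (without cells holding 3 markers of another class) for cells with 2 or more genes. The cause was not tested.

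Of the 72 levels per library, 34 moved beyond their interval in cells of at least 1000 UMIs (30 of them down), 17 when the level in microglia-marker cells was subtracted (Mbp in libraries 7, 8 and 9 and Mag in 6 libraries among them, all to below 0), 7 as a mean over cells and 3 with another total. Of 63 levels in a gene's leading marker class with 1 library left out (added later), 61 stayed within their interval, and those of Cldn11 without library 7 (77.4 against 164 CPM) and Mbp without library 3 (28.0 against 33.2 CPM) did not. Of the 80 shares by marker class, 79 held with 2 of 6 markers. No paired analysis was possible because 8 of the 9 libraries could not be assigned to a region or sleep group.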
